A study of Mus musculus with 40 samples.

Results

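The effect of the peptide IDR-1018 on the uninjured hemisphere was measured on 10 of the 40 arrays of the series. The members were the 5 arrays of right hemispheres from mice given lipopolysaccharide, hypoxia-ischaemia and the peptide (LPS/HI+IDR uninjured) and the 5 of right hemispheres from mice given the same without the peptide (LPS/HI uninjured). The rule that picks these arrays reads their titles and uses no measured value. RNA came from frozen brains of C57/Bl6 pups at postnatal day 9 and was hybridised to Affymetrix arrays. In these groups IDR-1018 or vehicle preceded lipopolysaccharide (LPS) by 4 h, the hypoxic-ischaemic insult (HI) came 14 h after LPS, and tissue was taken 6 h after HI. The groups set beside them, each of 5 arrays, were the left (injured) hemisphere with and without the peptide, LPS with IDR-1018 and LPS alone (both 6 h after LPS), and IDR-1018 alone and Vehicle (both 10 h after dosing). All groups share the strain, and no label names a genetic change. No label ties an array to a pup of its own or gives the sex, so p-values measure the spread between these samples. The label of the LPS group names no vehicle, and the last 4 groups are labelled uninjured brain without a side.

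IDR-1018 is a synthetic innate defence regulator peptide, designed from a bovine host defence peptide, and is known for altering the cytokine response of leukocytes to bacterial products. LPS is a bacterial cell wall component that acts through Toll-like receptor 4 and induces NF-kB targets and, through secreted type I interferon, a large set of interferon-stimulated genes. In the neonatal HI model a carotid artery is closed on the injured side and the pup then breathes low oxygen, so the opposite hemisphere experiences LPS and low oxygen without the focal loss of blood flow. The comparison asks whether the peptide altered gene expression in that hemisphere.

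The levels of the sampled tissue matched its labels. Snap25, a protein of synaptic vesicle release, was between 12.52 and 12.85 with the peptide and between 12.60 and 12.97 without it. All values are robust multi-array average (RMA) signals on the log2 scale, on which a step of 1 is a doubling. Ccl3, a chemokine gene that is high after injury, averaged 7.04 ± 0.29 in LPS/HI+IDR uninjured and 7.11 ± 0.11 in LPS/HI uninjured hemispheres (SD, n = 5 each), against 11.13 ± 0.60 and 10.94 ± 0.33 in the injured hemispheres with and without the peptide. Array medians over all 34760 probe sets lay between 7.02 and 7.10. Correlations between arrays over the genes were 0.993 to 0.996 within the peptide group and 0.992 to 0.997 within the group without it. Xist, which is transcribed from the inactive X chromosome, was above 10 on 3 of 5 arrays with the peptide and 4 of 5 without. The mean level of 34 ribosomal protein genes ran from 10.93 to 11.29 and from 10.90 to 11.27 in the same order. With Xist as a covariate the log2 fold changes of Ifi207 and Lcn2, described below, were -0.57 and -0.49, and with the ribosomal level -0.56 and -0.50, beside -0.56 and -0.49 without a covariate. Among the arrays used for comparison, array 3 of the injured hemisphere without peptide stood apart. It had both Xist at 11.23 and a mean of 8.01 over 3 Y-linked genes, where the other 23 arrays with Xist above 10 had Y-linked means of 3.98 to 4.49 and the other 16 arrays had 8.71 to 9.26. Values of the injured hemisphere are therefore also given without it where they moved by more than 1.5 times or belong to the tested difference.

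No gene passed the threshold between the 2 groups. limma called 0 of 19937 genes (0%) at a Benjamini-Hochberg adjusted p under 0.05, and its smallest adjusted p was 1. Without adjustment, 376 genes had a p under 0.05 (1.89%). Of these 253 had higher means with the peptide (1.27%) and 123 lower ones (0.617%), where 5% of all genes would be 997. The groups did not overlap for 70 genes (0.351%), 45 of them higher (0.226%) and 25 lower (0.125%) with the peptide. The median log2 fold change over all genes was 0.01, with 44.2% of genes below zero and 55.8% above it.

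The intervals show how large a difference these arrays could hide. The median half-width of the 95% interval of a log2 fold change was 0.17, and for 19648 genes (98.6%) the whole interval lay within 0.5 of zero. For 13 genes it reached 1. Among these were the sex-linked genes Xist, Eif2s3y, Kdm5d and Uty, the myelin genes Mag, Mobp and Mog, the acute phase genes Lcn2 and Saa3, and Eomes, Bpifb9b, Snord33 and Zfp600. Differences above 1.5-fold were measured for 6 genes. Of these 4 were sex-linked, and the others were Saa3 at -0.69 ± 0.24 (log2 fold change ± SE) and Zfp600, a zinc finger gene, at -0.64. The spread within groups was alike, with a median SD per gene of 0.123 with the peptide and 0.127 without it.

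**Figure D1:**
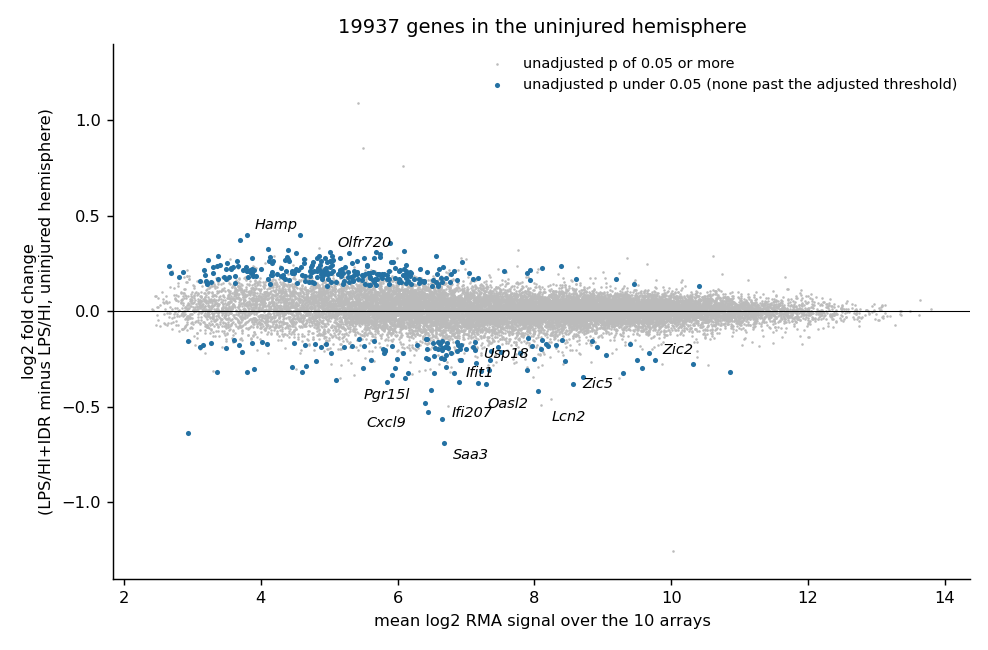
Log2 fold change of each of the 19937 genes (LPS/HI+IDR minus LPS/HI, uninjured hemisphere, y axis) against its mean log2 RMA signal over the 10 arrays (x axis). Blue points are the 376 genes at an unadjusted p under 0.05, and they lie mostly at low signal on the higher side. The 3 highest points and the lowest are the sex-linked genes, from 0.76 to 1.09 and at -1.25.

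Of the genes that interferon induces, most had lower means with the peptide, and none was called. Ifi207 (chromosome 1), a member of the interferon-inducible PYHIN family of nucleic acid sensors, was at 6.51, 6.26, 6.62, 6.38 and 6.11 on the 5 arrays with the peptide, against 7.13, 7.03, 7.19, 6.79 and 6.55 on the 5 without it. Only the lowest array without the peptide, 6.55, lay below the highest array with it, 6.62. The log2 fold change was -0.56 ± 0.13, with a 95% interval of -0.83 to -0.29 (limma unadjusted p = 0.000557, adjusted p = 1). Usp18, which removes ISG15 from proteins and dampens interferon receptor signalling, was between 6.82 and 7.10 on the 5 arrays with the peptide, against 7.39, 7.37, 7.27, 7.34 and 7.01 without it (-0.27 ± 0.08). Again a single array of the group without the peptide reached into the range of the other. Oasl2, an antiviral protein related to oligoadenylate synthetases, was at 7.97, 7.68, 8.18, 7.29 and 8.12 with the peptide, against 8.35, 8.35, 8.57, 8.11 and 7.97 without it (-0.42 ± 0.16). Its groups overlapped on several arrays. Ifit1, which binds viral RNA that lacks the host cap, averaged 6.71 ± 0.28 with the peptide and 7.08 ± 0.27 without it (SD, n = 5 each), with -0.37 ± 0.14 as the log2 fold change.

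The promoters of Ifi207, Ifit1 and Oasl2 are shown because they are the interferon-induced genes just described that the promoter table covers, and because interferon acts on such genes through a short promoter element. The table holds RefSeq sequence of build GRCm38.p6, and each stretch runs 5′ to 3′ on the gene's own strand from 250 bases before its start site to 50 after. Capitals mark the core of the interferon-stimulated response element as searched, which is GAAA, any 2 bases and GAAA again, or on the opposite strand TTTC, any 2 bases and TTTC. Matches may overlap. Ifi207 is at chr1:173741760-173742059 on the minus strand, Ifit1 at chr19:34640639-34640938 and Oasl2 at chr5:114896684-114896983, both on the plus strand.
Ifi207: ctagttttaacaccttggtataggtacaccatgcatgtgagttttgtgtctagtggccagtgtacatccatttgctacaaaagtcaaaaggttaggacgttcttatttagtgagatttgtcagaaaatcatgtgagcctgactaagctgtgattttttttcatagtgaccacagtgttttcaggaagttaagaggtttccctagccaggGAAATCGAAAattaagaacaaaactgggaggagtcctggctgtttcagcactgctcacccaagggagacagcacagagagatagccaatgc
Ifit1: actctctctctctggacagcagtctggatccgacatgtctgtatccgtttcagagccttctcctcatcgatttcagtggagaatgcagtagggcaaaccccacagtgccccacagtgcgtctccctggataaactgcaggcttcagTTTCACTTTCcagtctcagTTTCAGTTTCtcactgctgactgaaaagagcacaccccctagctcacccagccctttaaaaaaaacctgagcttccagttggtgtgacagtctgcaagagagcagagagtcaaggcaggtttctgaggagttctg
Oasl2: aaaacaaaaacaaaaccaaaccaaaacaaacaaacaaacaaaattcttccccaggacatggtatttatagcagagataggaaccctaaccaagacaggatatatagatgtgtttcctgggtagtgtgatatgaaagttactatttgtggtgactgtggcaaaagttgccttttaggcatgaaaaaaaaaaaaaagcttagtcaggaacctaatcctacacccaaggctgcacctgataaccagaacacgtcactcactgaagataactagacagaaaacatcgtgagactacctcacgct
Ifi207 held 1 match, its first base 41 bases before the start site. Ifit1 held 2, at 104 and 85 bases before it, and Oasl2 held 0 in this window. Of the 16 interferon response genes with an entry, 11 (68.8%) held at least 1 match, against 1131 of all 32851 promoters of that length (3.44%). The 16 were counted by gene, with a match in any promoter of the gene, and the 32851 by promoter. The 2 shares are therefore not of the same unit. A match describes the letters and is no measured binding site.

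The interferon response list (24 genes, 20 of them measured) had lower means with the peptide for 18 genes and higher means for Stat2 and Oas1a, set against the 44.2% of all genes below zero. None was called, and no member's groups were without overlap. Of the 20, 4 had an unadjusted p under 0.05 (Ifit1, Mx1, Oasl2 and Usp18), all lower, beside 0.617% of all genes. The list median was -0.19, and leaving out each array in turn gave -0.25 to -0.14. Per array, the mean level of the list was 6.91, 6.86, 7.10, 6.65 and 7.05 with the peptide, against 7.17, 7.10, 7.25, 6.98 and 6.98 without it. The ranges overlapped, with 3 of the peptide arrays below every array of the other group. The lowest mean, on peptide array 4, was not shared by all members, since Mx1 had 4.80 on that array and 4.55 on array 2. In bulk tissue, fewer responding cells and less RNA per cell cannot be told apart.

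Most interferon genes named here were above Vehicle in both uninjured groups, with Mx1 at -0.02 with the peptide and 0.16 without it an exception. Ifi207 averaged 6.37 with the peptide and 6.94 without it, against 5.45 in Vehicle, which gave log2 fold changes over Vehicle of 0.93 with the peptide (adjusted p = 0.00497) and 1.49 without it (adjusted p = 0.000119). Rtp4, an interferon-induced chaperone of receptors, rose over Vehicle by 1.09 with the peptide and 1.46 without it, and Sp100, a nuclear body protein, by 0.81 and 1.22 in the same order. Usp18 rose by 0.65 and 0.92. These comparisons share the Vehicle arrays. The medians of the list over Vehicle were 0.37 with the peptide and 0.56 without it, beside medians over all genes of -0.02 and -0.03. Against Vehicle, limma called 59 genes with the peptide (0.296%), 45 higher (0.226%) and 14 lower (0.0702%), and 87 without it (0.436%), 82 higher (0.411%) and 5 lower (0.0251%). These counts do not test the difference between the uninjured groups, for which 0 genes were called.

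**Figure D2:**
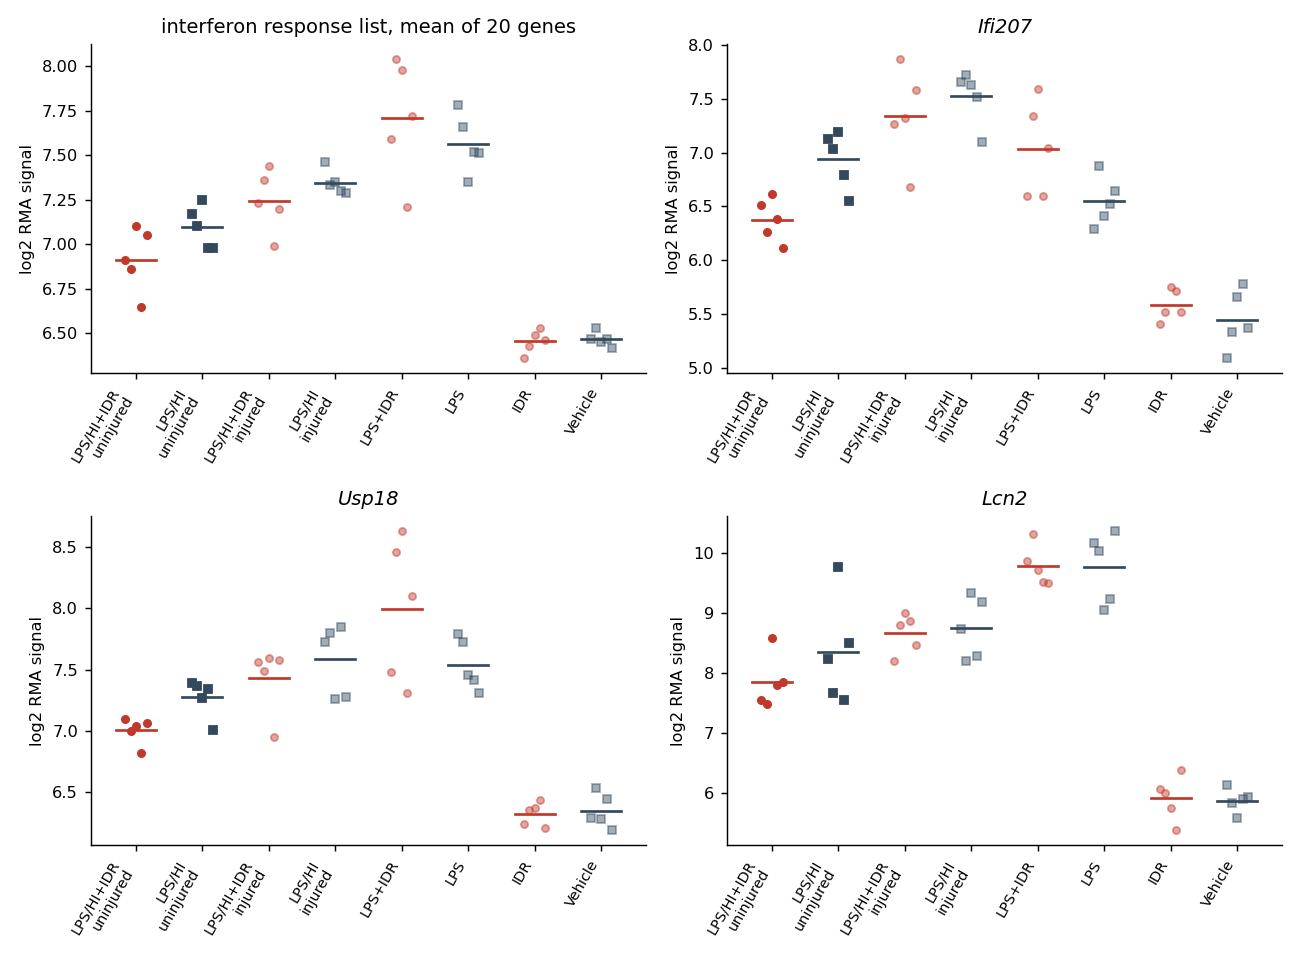
Log2 RMA signal on each of the 5 arrays of 8 groups for the mean of the 20 interferon response genes, Ifi207, Usp18 and Lcn2. Circles are groups given IDR-1018, squares groups without it, stronger colours the uninjured hemispheres after LPS/HI and bars group means. The Ifi207 means were 6.37 and 6.94 in the uninjured hemispheres with and without the peptide, and 5.58 and 5.45 with IDR-1018 alone and Vehicle.

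In the other settings of the peptide, which share no array with the uninjured hemisphere, the interferon values did not all run the same way. The list median was -0.12 in the injured hemisphere, 0.07 with LPS plus IDR-1018 against LPS alone, and -0.02 with IDR-1018 alone against Vehicle, beside medians over all genes of 0.00, -0.02 and -0.01. Ifi207 had log2 fold changes of -0.18, 0.49 and 0.14 in these settings, Usp18 of -0.15, 0.45 and -0.03, and Ifit1 of -0.15, 0.48 and 0.10. For these 3 genes the means with the peptide were lower in both hemispheres after LPS/HI and higher at 6 h after LPS. Uninjured and injured arrays of 1 number may come from the same pup, although no label says so. With the peptide, Xist was at 12.11, 11.94, 5.67, 5.34 and 11.92 on the uninjured side and 12.07, 12.24, 5.62, 5.41 and 12.18 on the injured side. Same-numbered deviations of these arrays correlated at 0.47, 0.416, 0.589, 0.0935 and 0.0884. For the arrays without the peptide the correlations were 0.501, 0.431, 0.392, 0.465 and 0.646. Of those, array 3 had a Y-linked mean of 4.27 on the uninjured side and 8.01 on the injured side. Likeness between the hemispheres may therefore not be independent. None of the comparisons in these other settings called a gene (0% in each), with 277 genes (1.39%), 2674 (13.4%) and 321 (1.61%) at an unadjusted p under 0.05. Xist was at 5.54, 5.21, 12.23, 12.01 and 5.46 with LPS plus IDR-1018, against 11.82 to 12.15 with LPS alone. That comparison therefore also differs in Xist, and the part of sex in its values was not tested. The difference of the peptide effect between the uninjured and the injured hemisphere was -0.38 ± 0.24 for Ifi207, -0.12 ± 0.18 for Usp18 and -0.28 ± 0.22 for Oasl2, none past the threshold. Without injured array 3, which carried both Xist and Y-linked signal, these were -0.41 ± 0.25, -0.04 ± 0.18 and -0.31 ± 0.24. The injured values were then -0.16 for Ifi207, -0.23 for Usp18 and -0.18 for Ifit1, with a list median of -0.08.

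Genes that LPS alone induces were taken from the LPS and Vehicle arrays, which are not among the 10. Xist was between 11.82 and 12.15 on the 5 LPS arrays, but at 12.06, 12.12, 5.59, 5.01 and 5.41 in Vehicle. These 2 groups therefore differ in Xist as well as in LPS, and the part of sex was not tested. limma called 166 genes between LPS and Vehicle (0.833%), 146 of them higher (0.732%) and 20 lower (0.1%) at 6 h after LPS. In the uninjured hemisphere 112 of the 146 (76.7%) had a lower mean with the peptide, where 44.2% of all genes did, and the median was -0.07. Beside 0.617% of all genes lower and 1.27% higher at an unadjusted p under 0.05, there were 13 lower (8.9%) and 0 higher, none called. They were Ifi207, Usp18, Oasl2, Ifit1, Sp100, Rtp4, Zbp1, Eif2ak2 and Lgals3bp, which interferon induces, with Saa3 and Cp of the acute phase, the immunoglobulin receptor gene Fcgr4 and the leukocyte adaptor gene Lcp2. Without the members of the interferon list, 99 of 133 genes had a lower mean and the median was -0.06, but the 133 still hold interferon-induced genes outside that list, such as Ifi207, Sp100, Rtp4, Zbp1 and Eif2ak2.

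The mean level of the 146 genes was 7.46, 7.56, 7.48, 7.27 and 7.54 on the arrays with the peptide, against 7.63, 7.53, 7.63, 7.50 and 7.51 without it and 7.05 to 7.08 in Vehicle. The ranges overlapped, and peptide array 4 was the lowest. Without that array 96 of the 146 means were lower and the median was -0.03, and without peptide array 2 the values were 126 and -0.11. In the injured hemisphere 83 of the 146 had a lower mean with the peptide (median -0.02), and with IDR-1018 alone against Vehicle 58 did (median 0.02). Of the 20 genes lower after LPS, 12 had a lower mean with the peptide in the uninjured hemisphere, with a median of -0.02.

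**Figure D3:**
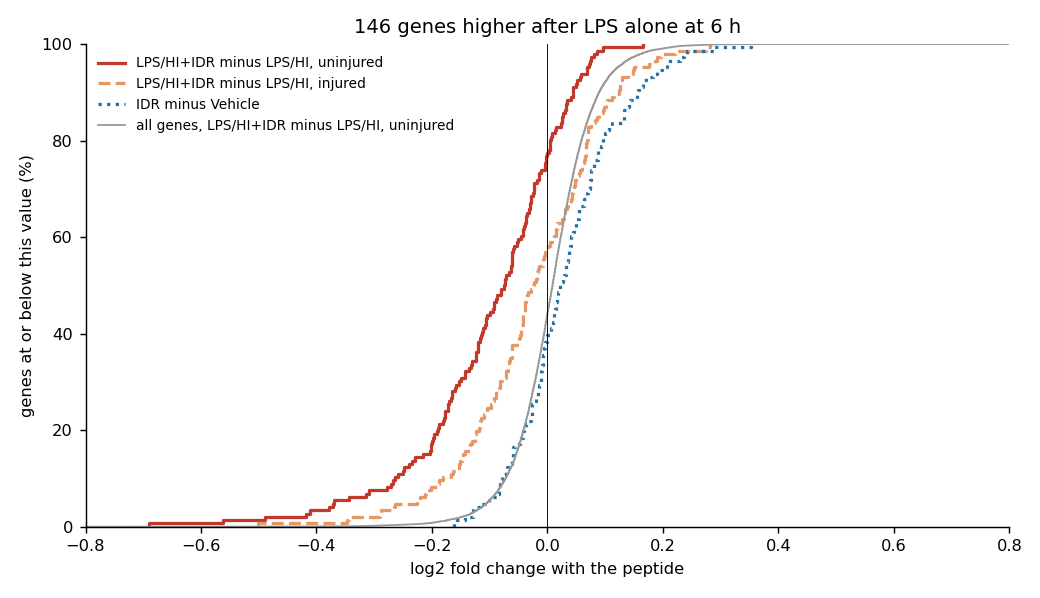
Cumulative share of the 146 genes higher after LPS alone (y axis, percent) by their log2 fold change with the peptide (x axis) in the uninjured hemisphere, the injured hemisphere and without LPS or HI, with all 19937 genes in grey. At zero the uninjured curve stands at 76.7% and the curve of all genes at 44.2%.

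Lcn2 and Saa3, secreted acute phase proteins that bind iron carriers and lipids, varied widely from array to array. Lcn2 was at 7.54, 7.48, 8.58, 7.79 and 7.85 with the peptide, against 8.23, 7.67, 9.77, 7.54 and 8.49 without it. Array 3 was the highest of each group, and the groups overlapped between 7.54 and 8.58. The log2 fold change was -0.49 ± 0.35, with an interval of -1.23 to 0.26, and it was -0.13 without array 3 of the group without peptide. Saa3 was at 6.33, 6.80, 6.37, 5.96 and 6.20 with the peptide, against 7.20, 6.85, 7.70, 6.06 and 7.31 without it. Of the arrays without the peptide 4 lay above all those with it, and the fifth within their range. Its log2 fold change was -0.69 ± 0.24 (limma unadjusted p = 0.0133) here and -0.50 in the injured hemisphere (-0.41 without injured array 3). On the injured side without the peptide Saa3 was at 7.34, 7.17, 7.56, 6.38 and 7.50, with array 4 again the lowest. Arrays of 1 number may come from the same pup, so the 2 hemispheres may not be independent for Saa3. Over Vehicle, Lcn2 rose by 1.98 with the peptide and 2.47 without it. Cp, the ferroxidase ceruloplasmin, had -0.25 ± 0.08. The acute phase list as a whole had 9 lower and 8 higher means of 17, with a median of -0.01.

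Cytokines and chemokines had a median of -0.02 over 22 genes, 13 of them lower. Among those at an unadjusted p under 0.05 were Cxcl9, an interferon-gamma-induced ligand of the lymphocyte receptor CXCR3, at -0.53 ± 0.21, Cxcl13, which attracts B cells, at -0.35 ± 0.12, and Lif, a cytokine that signals through gp130, at 0.24 ± 0.08. Cxcl9 was at 6.19, 6.27, 6.30, 6.03 and 6.12 with the peptide, against 7.46, 6.10, 7.20, 6.25 and 6.53 without it. High Cxcl9 was a matter of arrays 1 and 3 of the group without peptide, and leaving out array 1 gave -0.34. In the injured hemisphere Cxcl9 had -0.54 (-0.47 without injured array 3). There too arrays 1 and 3 without the peptide were the highest, at 7.58 and 7.06. Arrays of 1 number may come from the same pup, so the 2 hemispheres may not be independent for Cxcl9.

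The inflammatory and glial genes read as a panel for the peptide showed small differences apart from Lcn2, described above. None of the 17 had an unadjusted p under 0.05. Of the panel, 12 had lower and 5 higher means with the peptide, with a median of -0.02. Lcn2 was the lowest at -0.49, with its interval of -1.23 to 0.26. Il1b, Il6 and Tnf, the classical early cytokines, had log2 fold changes of 0.04 ± 0.09, 0.05 ± 0.08 and 0.03 ± 0.08, with intervals of -0.15 to 0.23, -0.12 to 0.21 and -0.13 to 0.20. The chemokine genes Ccl2, Ccl3 and Cxcl10 had -0.01 ± 0.10, -0.06 ± 0.12 and 0.02 ± 0.11. Of the intervals of these 6 genes, that of Ccl3 reached furthest, to -0.32. Without the peptide, Il1b, Il6 and Tnf had log2 fold changes over Vehicle of -0.04, -0.15 and 0.05 in the uninjured hemisphere. Those of Ccl2, Ccl3 and Cxcl10 were 0.22, -0.24 and 0.14, and none of the 6 was called. As these genes were not measurably raised here, the values do not show whether the peptide alters an induced cytokine response. The dampening genes Il10, Il1rn and Socs3, which encode an anti-inflammatory cytokine, the interleukin-1 receptor antagonist and a suppressor of STAT3, had -0.05, 0.06 and -0.01. The LPS receptor genes Tlr4 and Cd14 had -0.02 and -0.04, and Camp, the mouse cathelicidin host defence peptide, -0.09. Hmox1, haem oxygenase, was at -0.01. Gfap, Aif1 and Mbp, markers of astrocytes, microglia and myelin, had -0.10, -0.12 and -0.10, that of Mbp with an interval of -0.52 to 0.33. Tnf, Il1b and Il6 averaged 5.60, 5.52 and 3.02 with the peptide and 5.57, 5.47 and 2.97 without it. These levels are below the array medians.

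The genes with the smallest p on the lower side were Pgr15l, Ifi207, Zic5, Raet1d, Zic2, Dlgap5, Klra6, Depdc1a, Zic1 and Zfp980. Pgr15l (chromosome X) was at 6.25, 6.40, 5.96, 6.31 and 5.88 with the peptide, against 6.74, 6.69, 6.64, 6.47 and 6.66 without it. No array with the peptide reached the lowest without it. Its log2 fold change was -0.48 ± 0.10 (limma unadjusted p = 0.000304, adjusted p = 1), beside 0.20 in the injured hemisphere (0.12 without injured array 3), 0.30 with LPS plus IDR-1018 against LPS, and -0.06 with IDR-1018 alone.

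Zic1, Zic2 and Zic5 encode zinc finger transcription factors of the dorsal neural tube, cerebellum and meninges. Zic2 (chromosome 14) was at 9.71, 9.78, 9.55, 9.63 and 9.56 with the peptide, against 9.91, 9.87, 9.96, 9.79 and 9.95 without it (-0.25 ± 0.07), and the groups did not overlap. Zic1 (chromosome 9) was at 9.30, 9.56, 9.30, 9.36 and 9.56 with the peptide, against 9.76, 9.75, 9.75, 9.48 and 9.85 without it (-0.30 ± 0.08). Array 4 without the peptide lay within the range of the peptide arrays. The probe set kept for Zic5 averaged 8.37 ± 0.09 with the peptide and 8.75 ± 0.19 without it (SD, n = 5 each). It gave -0.38 ± 0.09, but the other probe set of that name gave -0.09 ± 0.10. Both are assigned to Zic5 by the platform annotation alone, which was not checked against a genome, so it is uncertain that the larger value measures Zic5. Probe set numbers of the genes named here largely run by chromosome. That of the kept probe set falls between those of Olfr1393 and Per1, both on chromosome 11, whereas Zic5 is on chromosome 14. The value of -0.38 may thus belong to another gene, which was not tested. Zic4 had -0.10 ± 0.08, with 0.15 ± 0.08 at its other probe set. In the injured hemisphere Zic1, Zic2 and Zic5 had 0.02, 0.03 and 0.02 (0.07, 0.06 and 0.08 without injured array 3), and with IDR-1018 alone 0.05, -0.01 and 0.04. The differences of the peptide effect between hemispheres were -0.32 ± 0.15, -0.28 ± 0.10 and -0.40 ± 0.15 for the same probe sets, none past the adjusted threshold.

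Markers of tissue at the edge of the hemisphere, and of the hypothalamus and thalamus, are given beside the Zic genes. Of 11 meninges and fibroblast markers 10 had lower means with the peptide (median -0.11), with Dcn (decorin) at -0.27 ± 0.10 and Lum (lumican) at -0.20 ± 0.08 at an unadjusted p under 0.05. The mean level of the list per array ran from 8.44 to 8.71 with the peptide and from 8.51 to 8.90 without it, and without array 3 of the group without peptide the median was -0.04. The cerebellum list holds Zic1 and Zic2 themselves. Of its 7 other members 4 had lower means and none had an unadjusted p under 0.05, with a median of -0.09, and their mean level per array ran from 7.31 to 7.61 with the peptide and from 7.24 to 7.70 without it. Tcf7l2, a transcription factor of the thalamus, had -0.26 ± 0.10. Of the 11 measured hypothalamus and thalamus markers, 9 had lower and 2 higher means, with a median of -0.07. None of these markers was at zero on any array, since RMA gives every probe set a value. The part of dissection in the Zic values was not tested.

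Among the other lower genes, Dlgap5 and Depdc1a act in mitosis, Raet1d is a ligand of the natural killer receptor NKG2D, and Klra6 is a receptor of the Ly49 family. Dlgap5 was at 6.36, 6.32, 6.24, 6.24 and 6.29 with the peptide, against 6.64, 6.48, 6.40, 6.53 and 6.62 without it (-0.24 ± 0.06). Its groups did not overlap. Depdc1a had -0.29 ± 0.08, with -0.66 ± 0.27 at its other probe set, which averaged only 2.93 with the peptide and 3.59 without it. As for Zic5, the assignment was not checked against a genome, so it is uncertain that both measure Depdc1a. The number of the kept probe set falls between those of Saa3 and Olfr603 on chromosome 7, whereas Depdc1a is on chromosome 3. Raet1d, Klra6 and Zfp980 had -0.32 each. In the injured hemisphere Raet1d and Zfp980 had -0.36 and -0.37, beside 0.02 for Klra6.

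**Figure D4:**
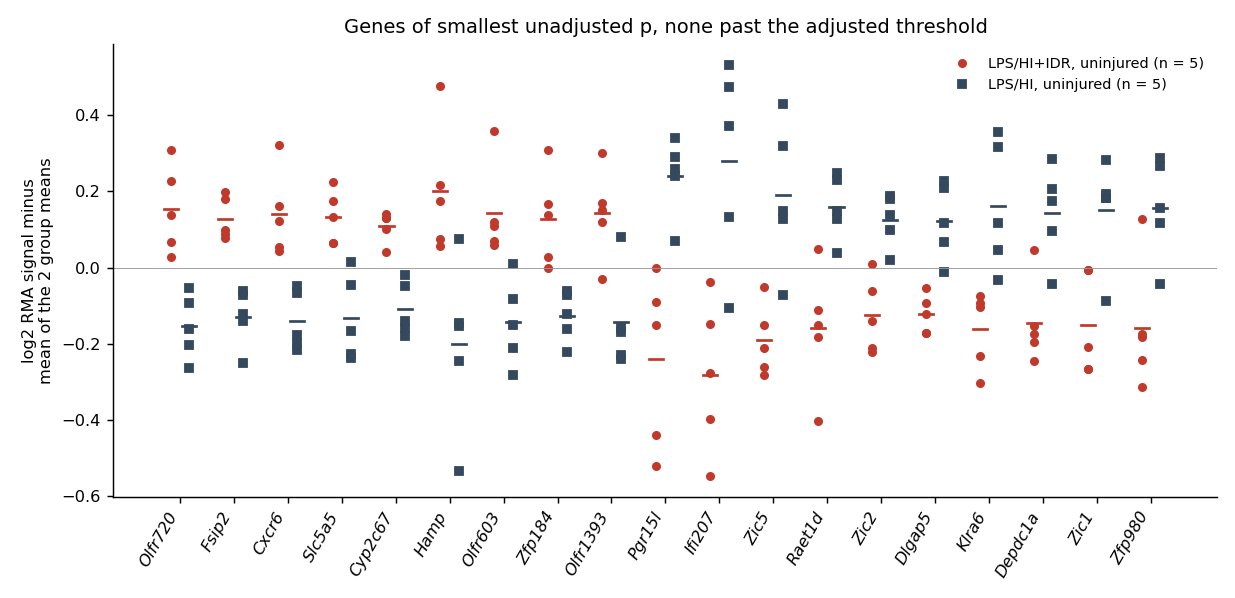
Log2 RMA signal of each array minus the mean of the group means (y axis) for the 9 higher and 10 lower genes of smallest unadjusted p, none past the adjusted threshold. Red circles are LPS/HI+IDR uninjured, dark squares LPS/HI uninjured, and bars group means. Ifi207 spans the widest range, with group means of 6.37 and 6.94.

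The genes with the smallest p on the higher side were measured at low signal. Olfr720, an olfactory receptor gene, was at 5.04, 5.32, 5.24, 5.08 and 5.15 with the peptide, against 4.75, 4.96, 4.92, 4.85 and 4.81 without it (0.31 ± 0.07, limma unadjusted p = 0.000681, adjusted p = 1). Hamp, which encodes the iron-regulating hormone hepcidin, was at 4.28, 3.86, 3.98, 3.88 and 4.02 with the peptide, against 3.65, 3.88, 3.56, 3.27 and 3.66 without it (0.40 ± 0.11). Array 2 without the peptide, at 3.88, lay within the range of the peptide arrays, while the groups of Olfr720 did not overlap. Cxcr6, the receptor of the chemokine CXCL16, had 0.28 ± 0.07, Slc5a5, the sodium iodide symporter, 0.26 ± 0.07, Fsip2, a protein of the sperm fibrous sheath, 0.26 ± 0.06, and Cyp2c67, a cytochrome P450, 0.22 ± 0.06. Olfr603, Olfr1393 and the zinc finger gene Zfp184 had 0.29, 0.29 and 0.26. In the injured hemisphere the 9 genes had log2 fold changes between -0.14 and 0.16. Of the 19 genes of smallest p, 16 had a mean below 7.05, the median of the array medians over all probe sets, among them all 9 of the higher ones. Of the higher genes 7 and of the lower genes 4 had groups without overlap, beside 0.226% and 0.125% of all genes. Nothing is read from this, since genes of smallest p tend to have separated groups.

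Proliferation genes leaned lower. Of 19 measured cell cycle genes, 18 had lower means with the peptide and none was called, with a median of -0.15 that was -0.14 in the injured hemisphere. Those at an unadjusted p under 0.05 were the mitotic kinases Aurka at -0.16 ± 0.06 and Aurkb at -0.22, and the kinetochore gene Cenpf at -0.20 ± 0.08. Mki67, the Ki-67 antigen, was at 8.00, 7.62, 7.45, 7.74 and 7.92 with the peptide, against 8.37, 7.58, 7.91, 8.05 and 7.93 without it (-0.22 ± 0.14), with broad overlap. Array 1 without the peptide held the highest mean of the list, 7.99, and without that array the median was -0.09. The list was also below Vehicle, with medians of -0.27 with the peptide and -0.15 without it.

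Immediate early genes leaned the other way, with higher means with the peptide for 21 of 23 and a median of 0.07. Nr4a3, an activity-induced nuclear receptor, was at 9.33, 9.27, 9.33, 9.23 and 9.22 with the peptide, against 9.08, 9.06, 9.24, 9.02 and 9.15 without it (0.17 ± 0.06, limma unadjusted p = 0.0178). Fos and Egr1 had 0.05 ± 0.17 and 0.07 ± 0.20. Array 2 with the peptide had the highest mean of the list, 8.23, and without it the median was -0.01. Reactive astrocyte genes had lower means for 18 of 22 (median -0.08), with Cp the 1 gene at an unadjusted p under 0.05.

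Of the cell type lists, oligodendrocyte lineage markers had 14 lower means of 15 and a median of -0.10, but the arrays varied widely. The list mean was 9.18, 9.71, 8.93, 8.62 and 9.62 with the peptide, against 9.41, 9.35, 8.88, 9.27 and 9.60 without it, and leaving out single arrays gave medians from -0.21 (without peptide array 2) to 0.06 (without peptide array 4). Endothelium markers had higher means for 9 of 11 (median 0.06), and lymphocyte markers for 10 of 11 (median 0.06), beside 55.8% of all genes. The B cell receptor gene Cd79a was at 0.29 ± 0.13. The lymphocyte list had a low mean level, 5.28 to 5.46 per array with the peptide and 5.22 to 5.30 without it. Genes of low signal in general leaned higher with the peptide, as given under other observations. Neutrophil markers had 7 lower and 6 higher means of 13 and a median of -0.02, with the collagenase and gelatinase genes Mmp8 at -0.17 ± 0.07 and Mmp9 at -0.23 ± 0.10. Medians were -0.04 for microglia, -0.03 for astrocytes, -0.02 for neurons and monocytes, 0.02 for the striatum, 0.03 for pericytes, -0.06 for choroid plexus and ependyma, and -0.07 for hypothalamus and thalamus markers.

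The remaining lists held no gene at an unadjusted p under 0.05. Glucocorticoid response genes had higher means for 10 of 13 (median 0.07, and -0.01 without peptide array 2), hypoxia response genes for 14 of 17 (median 0.05), and heat shock genes lower means for 11 of 12 (median -0.04). The other medians were 0.01 for unfolded protein and integrated stress, 0.02 for p53 and cell death, -0.03 for NRF2 antioxidant, 0.04 for the circadian clock and -0.01 for cholesterol synthesis genes. Lists of NF-kB targets, anti-inflammatory genes, activated endothelium and ribosomal proteins had medians of 0.00, the respiratory chain and synaptic receptors 0.01, and receptors of the peptide and LPS with cathelicidin -0.03. NF-kB targets, which LPS signalling reaches directly, had log2 fold changes between -0.08 and 0.07 over 16 genes. The median of this list over Vehicle was only 0.04 in the uninjured hemisphere without the peptide, and 0.09 at 6 h after LPS alone. The list as a whole was thus hardly raised, and its values do not show whether the peptide alters induced NF-kB targets.

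**Figure D5:**
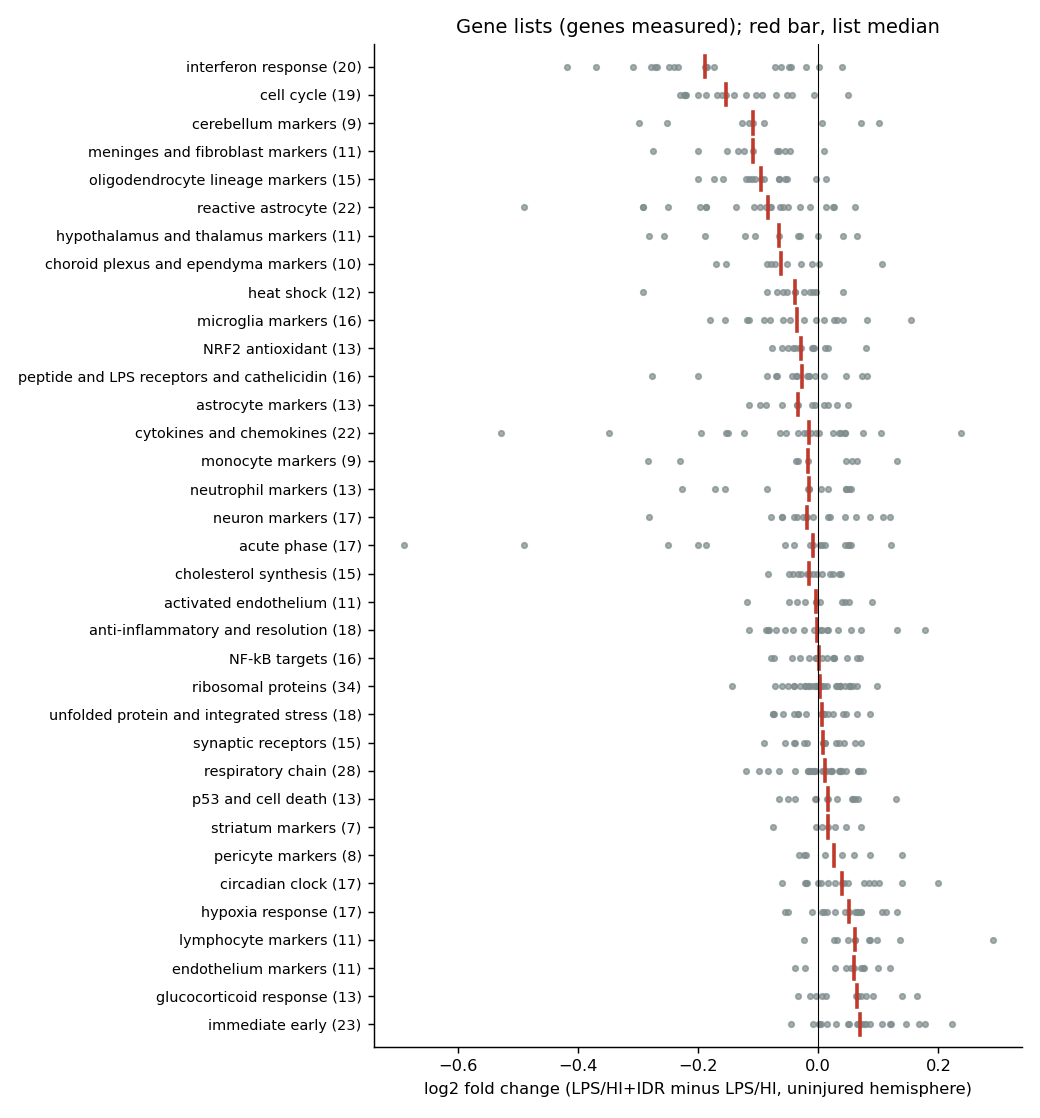
Log2 fold change of each measured gene (grey points, x axis) in 35 gene lists (y axis, number of genes measured in parentheses) for LPS/HI+IDR minus LPS/HI in the uninjured hemisphere, with list medians as red bars. The interferon response list has the lowest median, -0.19, and the immediate early and glucocorticoid lists the highest, 0.07, with no gene called in any list.

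The difference of the peptide effect between hemispheres was tested directly as an interaction over 20 arrays, with no block for the array number. limma called no gene there (0 of 19937, 0%), and 361 (1.81%) had a p under 0.05 without adjustment. The genes of smallest p were Olfr1090 at 0.43 ± 0.09, Asb4, an ankyrin repeat protein of ubiquitin ligase complexes, at -0.68 ± 0.16, and Pgr15l at -0.68 ± 0.18. Asb4 averaged 6.99 ± 0.30 with the peptide and 7.36 ± 0.12 without it in the uninjured hemisphere, and 7.56 ± 0.19 and 7.25 ± 0.04 in the injured one (SD, n = 5 each). In Vehicle it was at 7.39 ± 0.25. Without injured array 3 the interaction was 0.41 for Olfr1090, -0.68 for Asb4 and -0.60 for Pgr15l. Olfr1090 averaged 3.78 ± 0.12 and 3.54 ± 0.11 in the uninjured hemisphere, and 3.54 ± 0.05 and 3.73 ± 0.07 in the injured one, in the same order.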

How the data were processed

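The authors deposited log2 values for each probe set. RMA and affy are named in the submitters' processing notes, with versions not given in the sources used here. As RMA usually includes quantile normalisation, a change common to every gene of an array cannot be measured. Of 34760 probe sets, 21640 carried exactly 1 symbol in the platform annotation of GEO. Per gene, the probe set of highest mean signal over the 40 arrays was kept, leaving 19937 genes, of which 19855 matched a RefSeq gene ID of GRCm38.p6. No filter on signal was set.

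Groups were compared with limma 3.58.1 (lmFit and eBayes, R 4.3.3, tables read by the package data.table, version 1.17.8) on the arrays of the groups compared, with Benjamini-Hochberg adjustment over all genes and a threshold of 0.05. The fit was first tested on simulated data. How precise a value can be is limited by the number of arrays. Errors are standard errors for log2 fold changes and SDs for means. Where fewer than 10 genes were called in a direction, the genes of smallest p up to 10 were named, clone names, Xist and Y-linked genes passed over; of the 10 higher ones 1 is not reported here. Per list the 2 genes of smallest p could be named, with all genes of a peptide panel and the 3 genes of smallest p of the interaction. Other interferon genes, the genes of wide interval or over 1.5-fold, Cxcl9, Aurkb, Mki67, Fos, Egr1, Zic4, Snap25 and the genes induced by LPS were named after their values were seen. The comparison to describe, the 36 lists and the tests were chosen with earlier results of these data known, although the arrays themselves follow from their titles. Lists are described by counts and medians beside those of all genes, with no set test. Alternatives covered centring, signal filter, probe set choice, model, covariates, the number block and leaving out each array.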

Additional observations from a re-analysis of the deposited data

Results flagged for a closer look

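Among 258 groups of 5 arrays examined (129 genes, both groups), 13 held a value far from the others, its gap to the nearest array being more than 0.71 of the group's range. Chance gives such a value in about 5% of groups, and no explanation was weighed. With the peptide, the outlying arrays were Olfr603 at 4.74 (array 4), Ifit1 at 6.22 (array 4), Lif at 5.86, Plac8 at 5.52 and Cyp51 at 9.75 (array 5), Birc3 at 7.06 and Slc17a6 at 10.91 (array 2), and Oasl1 at 7.06 (array 1). Without the peptide they were Olfr1393 at 6.64, Chil3 at 3.01 and Aif1 at 6.21 (array 2), Mbp at 9.68 (array 3) and Zic1 at 9.48 (array 4). Of the genes the report turns on, Ifit1 and Zic1 are among them. Leaving out the outlying array gave -0.25 for Ifit1 and -0.36 for Zic1.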

How the results depend on the processing

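The count of 0 called genes held under 19 of 20 alternatives for the uninjured hemisphere. Over all probe sets, including those with no symbol, 1 was called, an unnamed one at 0.85 ± 0.09 (limma adjusted p = 0.0353), at 5.71 to 5.99 with the peptide and 4.74 to 5.18 without it, beside 5.64 in Vehicle. The interaction stayed at 0 under all 31 alternatives. Counts at an unadjusted p under 0.05 depend on the number of features tested. This was 19937 in the main fit, 34760 over all probe sets and fewer with the signal filter. The counts moved from 376 to 35 among genes above the median signal, 729 over all probe sets, 687 with array weights, 567 with the ribosomal level as covariate, and 294 to 532 without single arrays. For the interaction, 361 became 67, 738, 851 and 585 in the same order, 634 and 753 with the number as a fixed or random block, and 293 to 614 without single arrays, the highest without injured array 3 of the group without peptide, which carried both Xist and Y-linked signal. Leaving that array out, chosen after seeing the data, gave 405 in place of 277 genes at an unadjusted p under 0.05 for the injured hemisphere, with 0 called. Array numbers are shared by the groups, but same-numbered deviations correlated at 0.488, 0.0503, 0.591, 0.309 and 0.438, with 4 of 5 arrays closest to their own number. That is a hint of shared structure from the data, but no label says what the number marks and 1 pair was near zero, so the numbers were not taken to pair the arrays. With it as a replicate block 0 genes were called, 724 had an unadjusted p under 0.05, and the smallest adjusted p was 0.157, for Ifi207. None of the 19 genes of smallest p changed sign or passed in any alternative. With the block Lcn2 had a limma unadjusted p of 0.0161 in place of 0.18, and 27 of the 146 LPS-induced genes were lower at an unadjusted p under 0.05 in place of 13. The count over all genes, in both directions, rose with the block as well, from 376 to 724. The count of interferon genes lower at an unadjusted p under 0.05 ranged from 1 (without peptide array 4) to 10 (replicate block), around 4. The counts of the 146 LPS-induced genes by setting were chosen after seeing the data, and their median ranged from -0.11 to -0.03. With 5 arrays a group, differences under about 0.17 on the log2 scale lie within the median interval.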

Other observations

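Olfactory receptor genes were examined after their place among the genes of smallest p had been seen, so their values are a description. The 1027 genes with an Olfr symbol made up 5.15% of all genes and 75 of the 253 genes (29.6%) with a higher mean with the peptide at an unadjusted p under 0.05, against 3 of the 123 (2.44%) with a lower one. Their median signal was 4.24. With the peptide 743 of them (72.3%) had a higher mean, with a median log2 fold change of 0.05 in the uninjured hemisphere, -0.01 in the injured one, -0.02 with LPS plus IDR-1018 against LPS and 0.01 with IDR-1018 alone.

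The same lean was seen over all genes of low signal. Among the 4985 genes of lowest signal, between 2.41 and 6.02, 198 had a higher and 42 a lower mean with the peptide at an unadjusted p under 0.05, and the median was 0.03. Among the 4984 of highest signal, between 9.25 and 13.81, the counts were 2 and 8 and the median 0.00.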
